A study of Rattus norvegicus with 17 samples.

Results

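The enzymes and binding proteins that write, erase or read methyl and acetyl marks on DNA and histones were followed in CD4+ T cells of rats fed 3 amounts of vitamin D. The set is a list of 38 genes taken by symbol. A gene was measured where the array held a transcript cluster (the probe set for 1 transcribed locus) annotated to exactly 1 symbol, and the cluster with the highest mean over the 17 arrays stood for it. This gave 29 of the 38 genes, out of 14506 genes represented in the same way. All 29 passed the level filter that left 10879 genes for testing. Tet1, Tet2 and Tet3, the dioxygenases that oxidize methylated cytosine, and Mbd4, Sirt1, Suz12, Kmt2a, Setdb1 and Kdm6a were not analysed here.

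DNA methyltransferases add a methyl group to cytosine at CG dinucleotides, and Uhrf1 guides the maintenance enzyme Dnmt1 to newly copied DNA so that the pattern survives cell division. Methyl-CpG binding proteins read that pattern and bring histone deacetylases, while polycomb complex enzymes and H3K9 methyltransferases place repressive methyl marks on histone H3, and acetyltransferases and demethylases work in the other direction or remove marks. In CD4+ T cells, which divide and choose between effector fates after antigen, these enzymes are known for holding cytokine genes silent or open.

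The rats were female Dark Agouti, an inbred strain in which MOG causes autoimmune encephalomyelitis, a model of multiple sclerosis, and all 3 groups were immunized with myelin oligodendrocyte glycoprotein (MOG). The deprived diet held 0 IU of vitamin D (5 arrays), the regular diet 2 IU (6 arrays) and the supplemented diet 10 IU (6 arrays), fed from 5 weeks before immunization to the end. CD4+ cells were isolated by flow cytometry from lymph nodes 7 days after immunization. The labels call the arrays biological replicates and do not say whether each came from 1 rat, so the p-values measure only the spread between these samples.

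Values are log2 expression, and a change is a difference of mean log2 values with its standard error (SE) from 1 limma model over all 17 arrays. A gene counts as changed at a Benjamini-Hochberg adjusted p below 0.05 over the 10879 genes. The 8 T cell markers listed for the sort were all represented on the arrays, with Cd3e at 10.25 to 10.98 over the 17 arrays. Cd4, the gene of the sort marker, was at 9.01 to 9.88 on the supplemented arrays, below every regular array (10.09 to 10.25) and every deprived array (10.04 to 10.34). In a bulk sample, fewer cells of a type and less RNA per cell cannot be told apart. The supplemented arrays stood apart in the spread of their values, the SD over all transcript clusters, which was 1.908 to 1.972 there, against 2.001 to 2.063 for the regular and 2.027 to 2.073 for the deprived diet.

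Against the regular diet, 10 of the 29 genes were lower on the supplemented diet, none was higher and 19 did not pass. The background was high, since 33.7% of all genes tested changed, 22.9% lower and 10.8% higher, so the share of the set that changed (34.5%) was close to that of all genes. At an unadjusted p under 0.05 there were 11 of 29, against 45.2% of all genes. The median change was -0.076 over the set and 0.001 over all genes. Against the deprived diet, 13 of 29 were lower on the supplemented diet and none was higher, beside 47.2% of all genes changed, 28.6% lower and 18.6% higher, with a median of -0.151 over the set. At an unadjusted p under 0.05 there were 15, against 55.2% of all genes. Between the deprived and regular diets none of the 29 passed in limma, 5 had an unadjusted p under 0.05, and 1.67% of all genes passed, 1.49% higher on the deprived diet. At that unadjusted p there were 16.7% of all genes.

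The 13 genes lower on the supplemented diet in at least 1 of these comparisons were Dnmt1, Uhrf1, Mbd2, Hdac1, Hdac2, Ezh1, Ezh2, Eed, Suv39h1, Kat2a, Kdm1a, Kdm5a and Crebbp. Both comparisons share the supplemented arrays. Scaling moved the split: after quantile normalization of the deposited values, which gives every array the same distribution, 4 genes were lower and 4 higher against the regular diet, and 7 lower and 2 higher against the deprived diet. Of all genes 25.5% then passed against the regular diet (1724 lower, 1053 higher) and 32.8% against the deprived diet (2109 lower, 1458 higher), so the 8 and 9 of 29 were close to the background. Of the 10 and 13 calls, 4 and 6 still passed after quantile normalization. With the array spread as a covariate none passed in any comparison in limma, and 4, 3 and 3 had an unadjusted p under 0.05 in supplemented minus regular, deprived minus regular and supplemented minus deprived. That loss covered the whole array: 0 of 10879 genes passed in both supplemented comparisons (1192 and 1206 at an unadjusted p under 0.05) and 68 in deprived minus regular (1595 at that unadjusted p). Since the spread of the supplemented arrays did not overlap that of the others, it and the diet cannot be told apart.

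**Figure D1:**
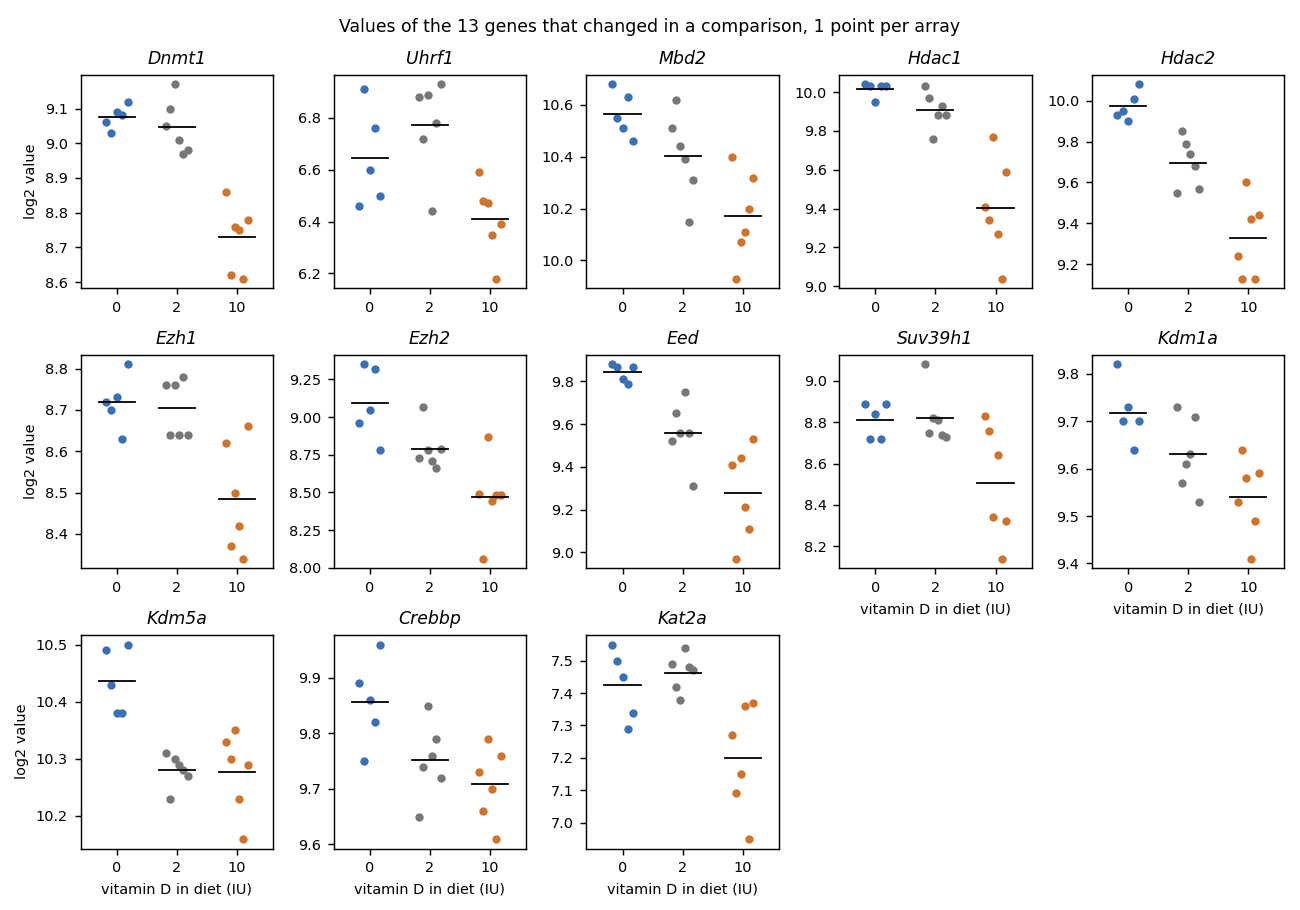
Log2 expression of the 13 genes that changed in at least 1 comparison, 1 point per array, with the mean of each diet as a line. The horizontal axis is the vitamin D in the diet in IU (0, 2 or 10), and each panel has its own vertical axis that does not start at 0. The 10 IU arrays of Dnmt1 (8.61 to 8.86) lie below all arrays of both other diets, while those of Ezh2 and Suv39h1 overlap the 2 IU arrays. Under quantile normalization Crebbp, Kdm1a and Kdm5a have the other sign for 10 against 0 IU.

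Dnmt1, the maintenance DNA methyltransferase, was lower on the supplemented diet in both comparisons. Its log2 values on the 5 deprived arrays were 9.06, 9.03, 9.09, 9.08 and 9.12. The regular arrays ran from 8.97 through a median of 9.03 to 9.17, and the supplemented arrays from 8.61 through 8.76 to 8.86. Every supplemented array lay below every array of the other diets, and the deprived arrays fell inside the regular range. Dnmt1 fell by 0.32 against the regular diet (SE 0.06, n = 6 and 6, adjusted p = 0.000255 in limma), a 1.24-fold lower level, and by 0.34 against the deprived diet (SE 0.06, adjusted p = 0.000101). After quantile normalization the changes were -0.16 (adjusted p = 0.0184) and -0.13 (adjusted p = 0.0588).

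Uhrf1, the partner of Dnmt1 that binds hemimethylated DNA, was also lower on the supplemented diet. The deprived arrays read 6.46, 6.91, 6.60, 6.76 and 6.50, the regular arrays had a lowest, median and highest value of 6.44, 6.83 and 6.93, and the supplemented arrays of 6.18, 6.43 and 6.59. The groups overlapped at 1 low regular array and at the lower deprived arrays. Uhrf1 fell by 0.36 against the regular diet (SE 0.09, adjusted p = 0.0038) and by 0.24 against the deprived diet (SE 0.09, adjusted p = 0.0422). The second of these did not pass without deprived array 3 (adjusted p = 0.142), 4 (0.0558) or 5 (0.0938), or without supplemented array 4 (0.0686), 5 (0.104) or 6 (0.0614).

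The de novo methyltransferases Dnmt3a and Dnmt3b, which set new methylation patterns, did not pass in any comparison over all 17 arrays. Dnmt3a differed by -0.15 (SE 0.08, adjusted p = 0.15) between the supplemented and regular diets and by -0.17 (SE 0.08, adjusted p = 0.0872) between the supplemented and deprived diets. Its 95% intervals, -0.31 to 0.02 and -0.35 to just below 0, leave room for a difference as large as that of Uhrf1 against the deprived diet. Dnmt3b differed by -0.05 (SE 0.07, adjusted p = 0.53) and -0.16 (SE 0.07, adjusted p = 0.0672). Leaving out 1 array brought calls against the deprived diet: Dnmt3a passed without supplemented array 6 (-0.22, adjusted p = 0.0331), and Dnmt3b without supplemented array 4 (-0.18, adjusted p = 0.0422) or deprived array 4 (-0.20, adjusted p = 0.0305). After quantile normalization Dnmt3b was lower on the supplemented than on the deprived diet by -0.28 (adjusted p = 0.00243).

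Mbd2, the methyl-CpG binding subunit of a nucleosome remodeling and deacetylase complex, read 10.68, 10.55, 10.51, 10.63 and 10.46 on the deprived arrays. Its lowest, median and highest values were 10.15, 10.42 and 10.62 on the regular arrays and 9.93, 10.15 and 10.40 on the supplemented arrays. The supplemented and deprived arrays did not overlap, and the regular arrays lay across both. Mbd2 fell by 0.39 against the deprived diet (SE 0.09, adjusted p = 0.000841). It also fell by 0.23 against the regular diet (SE 0.08, adjusted p = 0.0311), a call that was lost without supplemented array 2 (adjusted p = 0.087), 3 (0.0545) or 4 (0.0542) or regular array 1 (0.0705), 2 (0.082) or 3 (0.0576). After quantile normalization neither change passed, at -0.14 (adjusted p = 0.203) and -0.05 (adjusted p = 0.64).

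Mbd1, a reader that works with H3K9 methylation, and Mbd3, the paralog of Mbd2 that binds methylated DNA poorly, did not pass. Mbd1 differed by -0.08 (SE 0.07, adjusted p = 0.421) from the regular and by -0.15 (SE 0.08, adjusted p = 0.103) from the deprived diet. Mbd3 differed by 0.01 (SE 0.07, adjusted p = 0.926) and 0.14 (SE 0.08, adjusted p = 0.141). These 2 genes kept the signs just given after quantile normalization.

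Of 8 histone deacetylases measured, 2 were lower on the supplemented diet and 6 did not pass, in both comparisons. Of all genes tested, 22.9% were lower than on the regular diet and 28.6% were lower than on the deprived diet. The 2 were Hdac1 and Hdac2, the paired nuclear deacetylases that sit together in the NuRD, Sin3 and CoREST complexes. They were the only deacetylases measured with means in the level range of 8.34 to 13.15. In that range 52.6% and 65.3% of all genes were lower than on the regular and deprived diets. Hdac1 read 10.04, 10.03, 9.95, 10.03 and 10.03 on the deprived arrays, with a lowest, median and highest value of 9.76, 9.90 and 10.03 on the regular arrays and 9.04, 9.38 and 9.77 on the supplemented arrays. The deprived arrays were tight, the supplemented arrays wide, and the supplemented range touched the regular range at 1 array.

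Hdac1 fell by 0.50 against the regular diet (SE 0.09, n = 6 and 6, adjusted p = 0.000151), a 1.42-fold lower level, and by 0.61 against the deprived diet (SE 0.09, adjusted p = 1.7e-05), a 1.53-fold lower level. A second transcript cluster annotated to Hdac1 gave -0.45 (SE 0.10) and -0.56 (SE 0.10), with adjusted p-values over all clusters of 0.00307 and 0.000457. After quantile normalization both changes of the first cluster still passed, at -0.32 (adjusted p = 0.00554) and -0.35 (adjusted p = 0.00263).

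Hdac2 read 9.93, 9.95, 9.90, 10.01 and 10.08 on the deprived arrays. The regular arrays had a lowest, median and highest value of 9.55, 9.71 and 9.85, and the supplemented arrays of 9.13, 9.33 and 9.60. Every deprived array was above every regular array, and only the top of the supplemented range reached the bottom of the regular range. Hdac2 fell by 0.37 against the regular diet (SE 0.08, adjusted p = 0.000965) and by 0.65 against the deprived diet (SE 0.08, adjusted p = 2.55e-06), a 1.57-fold lower level. The deprived minus regular difference of 0.28 (SE 0.08) did not pass (adjusted p = 0.0861), and passed without supplemented array 3 (adjusted p = 0.0498). After quantile normalization the change was -0.20 (adjusted p = 0.0503) against the regular and -0.40 (adjusted p = 0.000485) against the deprived diet.

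The promoters of Hdac1, Hdac2 and Dnmt1 are shown, whose genes had the smallest adjusted p-values in the set against the regular diet. Each is the 250 bases before the RefSeq start in the GRCr8 assembly, 5′ to 3′ on the strand of the gene, with capitals marking the motif matches described next. Hdac1 lies on the minus strand at chr5:147165388-147165637, Hdac2 on the plus strand at chr20:42102877-42103126 and Dnmt1 on the minus strand at chr8:27762842-27763091.
Hdac1: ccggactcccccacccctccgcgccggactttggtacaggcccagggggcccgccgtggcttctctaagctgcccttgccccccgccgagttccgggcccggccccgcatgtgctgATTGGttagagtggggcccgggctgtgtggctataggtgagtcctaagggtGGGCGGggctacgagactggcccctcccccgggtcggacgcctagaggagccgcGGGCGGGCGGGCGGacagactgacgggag
Hdac2: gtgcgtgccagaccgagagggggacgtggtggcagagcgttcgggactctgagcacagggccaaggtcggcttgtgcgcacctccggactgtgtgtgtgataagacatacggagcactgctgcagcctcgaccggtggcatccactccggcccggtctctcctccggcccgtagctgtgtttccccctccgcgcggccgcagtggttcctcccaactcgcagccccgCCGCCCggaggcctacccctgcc
Dnmt1: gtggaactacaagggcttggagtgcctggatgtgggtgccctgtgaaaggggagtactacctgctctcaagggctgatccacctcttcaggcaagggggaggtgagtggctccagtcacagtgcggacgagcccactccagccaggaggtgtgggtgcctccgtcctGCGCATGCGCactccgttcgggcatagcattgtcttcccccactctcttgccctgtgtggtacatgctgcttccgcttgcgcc

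Motifs were searched on both strands. The GC box, which Sp1 family factors bind, was searched as GGGCGG, and the CCAAT box of the factor NF-Y by its name's letters. The E box was searched as CACGTG. The motif of NRF1, a factor of growth and mitochondrial genes, was GCGCATGC. For E2F, the cell cycle factor, the forms TTTGGCGC, TTTCCCGC and TTTCGCGC were used. The vitamin D response element was taken as a direct repeat of AGGTCA, with 3 bases between the copies. The same repeat built from GGTTCA was counted with it. Hdac1 held 4 GC boxes, 3 of them overlapping, and 1 CCAAT box read on the other strand. Hdac2 held 1 GC box on the other strand, and Dnmt1 the NRF1 motif on both strands in an overlapping pair. The promoter of Eed was also extracted, is not shown, and held none of these motifs. Against the deprived diet Eed (adjusted p = 3.41e-05 in limma) ranked ahead of Dnmt1 (adjusted p = 0.000101).

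RefSeq promoters were at hand for 25 of the 29 genes and 11 of the 13 that changed. A gene counted where any of its promoters held the motif. A GC box was present in 17 of 25 (68.0%), against 48.0% of the 11968 genes on the array with a promoter and 33.5% of all 27457 genes with a promoter. A CCAAT box was present in 11 of 25 (44.0%), against 36.2% and 36.1%. In the next shares, genes on the array with a promoter are given before all genes with a promoter. The NRF1 motif was present in Dnmt1 and Suv39h1 (3.58% and 2.48%), an E2F form in Uhrf1 (2.22% and 1.58%) and the E box in 3 genes, none of them changed (7.07% and 6.18%). The vitamin D response element letters were in no window of the 25 genes, beside 0.0418% and 0.0401%. A match is a description of the letters, not of binding.

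The other 6 deacetylases did not pass against either diet over all 17 arrays. Hdac3, the catalytic subunit of the NCoR and SMRT corepressor complexes, differed by 0.12 (SE 0.08, adjusted p = 0.23) and 0.09 (SE 0.08, adjusted p = 0.355). Without supplemented array 6 Hdac3 passed as higher than on the regular diet (0.19, adjusted p = 0.0378). After quantile normalization Hdac3 was higher on the supplemented diet by 0.23 (adjusted p = 0.0419) and 0.25 (adjusted p = 0.0335). The class II deacetylases gave 95% intervals around 0 against the regular diet. They were -0.20 to 0.09 for Hdac4 and -0.05 to 0.26 for Hdac5. Hdac6, the tubulin deacetylase, gave -0.14 to 0.11, and Hdac7, which is abundant in thymocytes, -0.25 to 0.12. Against the deprived diet Hdac5 differed by 0.15 (SE 0.08, adjusted p = 0.101), and it passed as higher on the supplemented diet without supplemented array 3 (0.22, adjusted p = 0.0128) or deprived array 2 (0.20, adjusted p = 0.0429). Against the regular diet the class I enzyme Hdac8 gave -0.15 to 0.24 around a difference of 0.04, which was -0.01 after quantile normalization.

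All 3 measured members of polycomb repressive complex 2, which places methyl groups on lysine 27 of histone H3, were lower on the supplemented diet in both comparisons. Their means over all arrays lay in the level range of 8.34 to 13.15. In that range 52.6% of all genes were lower than on the regular diet, and 65.3% were lower than on the deprived diet. Ezh2, the catalytic subunit of dividing cells, read 8.96, 9.35, 9.05, 9.32 and 8.78 on the deprived arrays. The lowest, median and highest values were 8.66, 8.76 and 9.07 on the regular arrays and 8.06, 8.48 and 8.87 on the supplemented arrays. The supplemented arrays overlapped both other diets at the top of their range. Ezh2 fell by 0.62 against the deprived diet (SE 0.12, adjusted p = 0.000182), a 1.54-fold lower level, and by 0.32 against the regular diet (SE 0.11, adjusted p = 0.0278). Without supplemented array 2 the second change was -0.24 (adjusted p = 0.0817), and without regular array 2 it was -0.27 (adjusted p = 0.0732).

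Eed, the subunit that binds the finished H3K27 mark and stimulates the enzyme, read 9.88, 9.87, 9.81, 9.79 and 9.87 on the deprived arrays. Its lowest, median and highest values were 9.31, 9.56 and 9.75 on the regular arrays and 8.97, 9.31 and 9.53 on the supplemented arrays. The deprived arrays lay above all others, and the supplemented and regular ranges overlapped. Eed fell by 0.57 against the deprived diet (SE 0.09, adjusted p = 3.41e-05) and by 0.28 against the regular diet (SE 0.09, adjusted p = 0.0151). The deprived minus regular difference of 0.29 (SE 0.09) did not pass (adjusted p = 0.107).

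Ezh1, the paralog of Ezh2 found mainly in resting cells, read 8.72, 8.70, 8.73, 8.63 and 8.81 on the deprived arrays, close to the regular range of 8.64 to 8.78 (median 8.70). The supplemented arrays ran from 8.34 through 8.46 to 8.66, overlapping the others at the top. Ezh1 fell by 0.22 against the regular diet (SE 0.06, adjusted p = 0.0111) and by 0.23 against the deprived diet (SE 0.07, adjusted p = 0.00694). After quantile normalization none of the 3 passed against the regular diet, while Ezh2 at -0.42 (adjusted p = 0.00927) and Eed at -0.32 (adjusted p = 0.00486) still passed against the deprived diet and Ezh1 at -0.04 (adjusted p = 0.619) did not.

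Suv39h1, which trimethylates lysine 9 of histone H3 in heterochromatin, read 8.89, 8.72, 8.84, 8.72 and 8.89 on the deprived arrays. The regular arrays ran from 8.73 through 8.78 to 9.08 and the supplemented arrays from 8.14 through 8.49 to 8.83. The wide supplemented range reached into both other diets. Suv39h1 fell by 0.32 (SE 0.10, adjusted p = 0.0164) against the regular and by 0.31 (SE 0.10, adjusted p = 0.0173) against the deprived diet. A second cluster annotated to Suv39h1 had a mean of 4.77, below the level filter, and gave 0.01 (SE 0.12) and 0.07 (SE 0.13). With the mean of both clusters Suv39h1 did not pass, with adjusted p-values of 0.147 and 0.248.

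Ehmt2 (G9a), which mono- and dimethylates the same lysine in euchromatin, did not pass, at -0.01 (SE 0.07, adjusted p = 0.907) and -0.13 (SE 0.08, adjusted p = 0.152). Kmt2d, an H3K4 methyltransferase of enhancers, differed by 0.05 (SE 0.08, adjusted p = 0.65) and by -0.02 (SE 0.08, adjusted p = 0.849), the second of which had the other sign after quantile normalization (0.14, adjusted p = 0.135). Dot1l, the only H3K79 methyltransferase of the list, differed by -0.11 (SE 0.07, adjusted p = 0.218) and 0.04 (SE 0.07, adjusted p = 0.671), the latter with the other sign after quantile normalization (-0.01).

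Among the demethylases, Kdm1a and Kdm5a were lower on the supplemented than on the deprived diet and did not pass against the regular diet, while Kdm6b passed in neither. Kdm1a (LSD1), which removes methyl groups from lysine 4 of histone H3 in the CoREST complex, read 9.82, 9.70, 9.73, 9.64 and 9.70 on the deprived arrays. The regular arrays ran from 9.53 through 9.62 to 9.73 and the supplemented arrays from 9.41 through 9.56 to 9.64. The highest supplemented array lay just below the lowest deprived array (both 9.64 after rounding), and the supplemented arrays overlapped most of the regular range. Kdm1a fell by 0.18 (SE 0.06, adjusted p = 0.0184) against the deprived diet, with an adjusted p of 0.0551 without deprived array 2, and the sign turned to 0.07 after quantile normalization (adjusted p = 0.388).

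Kdm5a, which removes trimethylation from the same lysine, read 10.49, 10.43, 10.38, 10.38 and 10.50 on the deprived arrays, 10.23 to 10.31 (median 10.29) under the regular and 10.16 to 10.35 (median 10.30) under the supplemented diet. All deprived arrays lay above all others, and the other diets covered the same values. Kdm5a fell by 0.16 against the deprived diet (SE 0.05, adjusted p = 0.0184), and the sign turned to 0.09 after quantile normalization (adjusted p = 0.152). The deprived minus regular difference of 0.16 (SE 0.05) did not pass (adjusted p = 0.138). Kdm6b, an H3K27 demethylase induced in activated cells, differed by -0.03 (SE 0.07, adjusted p = 0.736) from the regular and -0.02 (SE 0.08, adjusted p = 0.808) from the deprived diet.

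Of the 4 acetyltransferases, Kat2a was lower on the supplemented diet in both comparisons, and Crebbp was lower than on the deprived diet but did not pass against the regular diet. Kat2a (GCN5), the catalytic subunit of the SAGA and ATAC complexes, read 7.55, 7.50, 7.45, 7.29 and 7.34 on the deprived arrays. The regular arrays ran from 7.38 through 7.47 to 7.54 and the supplemented arrays from 6.95 through 7.21 to 7.37. The supplemented arrays lay below all regular arrays and overlapped the lower deprived arrays. Kat2a fell by 0.27 against the regular diet (SE 0.07, adjusted p = 0.00648) and by 0.23 against the deprived diet (SE 0.07, adjusted p = 0.0157), the latter with an adjusted p of 0.0501 without deprived array 2. Both still passed after quantile normalization, at -0.26 (adjusted p = 0.00768) and -0.21 (adjusted p = 0.0254).

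Crebbp (CBP) read 9.89, 9.75, 9.86, 9.82 and 9.96 on the deprived arrays, 9.65 to 9.85 (median 9.75) under the regular and 9.61 to 9.79 (median 9.72) under the supplemented diet. The ranges of the 3 diets overlapped. Crebbp fell by 0.15 against the deprived diet (SE 0.06, adjusted p = 0.0431), a call lost without any 1 of deprived arrays 2, 4 and 6, supplemented arrays 2, 4 and 5 or regular arrays 4 and 5 (adjusted p 0.0504 to 0.12). The sign turned to 0.11 after quantile normalization (adjusted p = 0.146). Against the regular diet the difference was -0.04 (SE 0.06, adjusted p = 0.582), and after quantile normalization Crebbp was higher by 0.14 (adjusted p = 0.0492).

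Ep300 (p300), the paralog of Crebbp and an enhancer acetyltransferase, read 9.95, 9.95, 10.00, 9.90 and 10.03 on the deprived arrays, 9.81 to 9.89 (median 9.85) under the regular and 9.89 to 10.08 (median 9.98) under the supplemented diet. The regular arrays were the lowest, all below the deprived arrays and level with the supplemented arrays only at 9.89. The supplemented minus regular difference of 0.13 (SE 0.05) and the deprived minus regular difference of 0.12 (SE 0.05) did not pass, with adjusted p-values of 0.0638 and 0.279. After quantile normalization Ep300 was higher on the supplemented diet by 0.30 (adjusted p = 0.00011) against the regular and 0.26 (adjusted p = 0.000476) against the deprived diet. Kat2b (PCAF), the paralog of Kat2a, differed by -0.08 (SE 0.09, adjusted p = 0.5) and -0.14 (SE 0.09, adjusted p = 0.203), both with the other sign after quantile normalization (0.07 and 0.07).

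**Figure D2:**
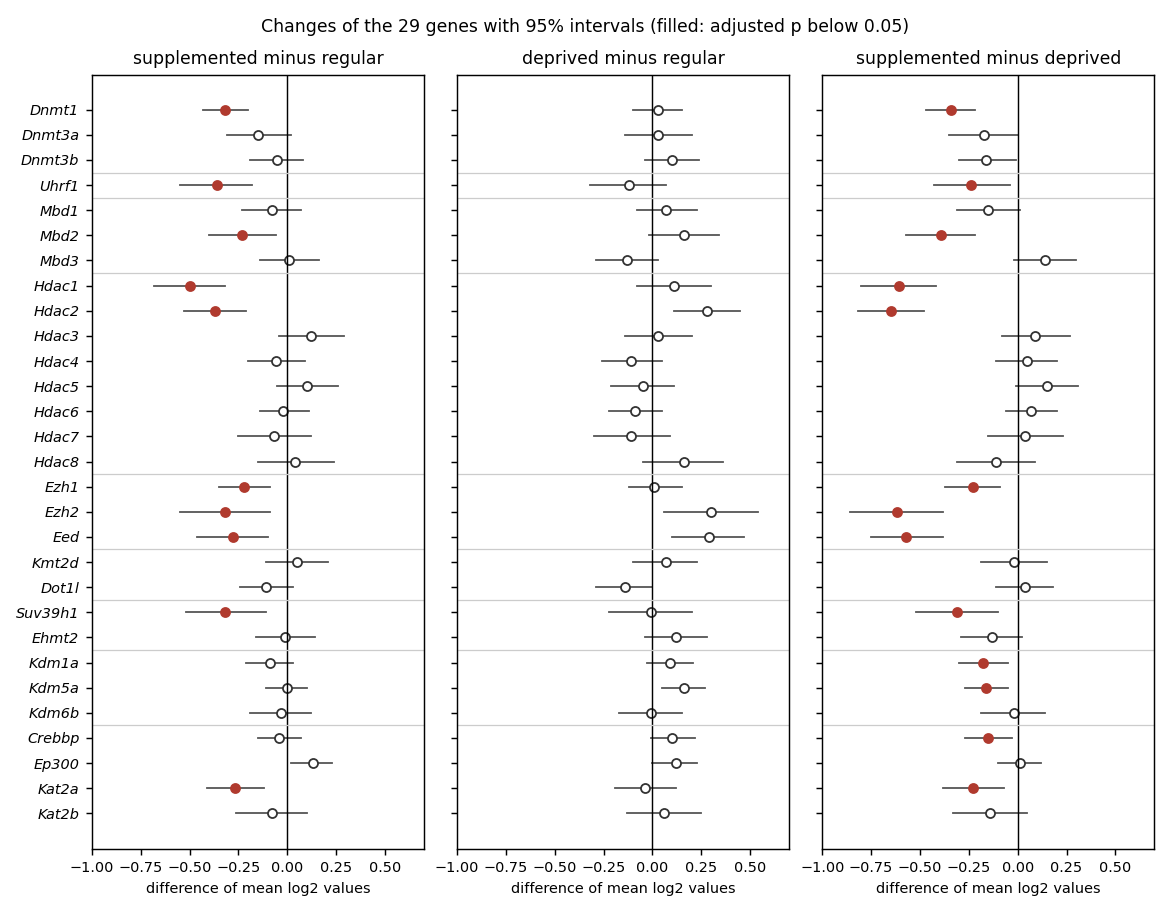
Change of each of the 29 measured genes in the 3 comparisons, as the difference of mean log2 values (horizontal axis) with its 95% interval; filled points have an adjusted p below 0.05 and grey lines separate the roles. All 10 and 13 filled points of the outer panels lie below 0, and the middle panel, deprived minus regular, has none. After quantile normalization the sign of 5 and 7 of the 29 genes in the outer panels turned.

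The deprived and regular diets were closer together. The 5 genes at an unadjusted p under 0.05 were Hdac2, Ezh2, Eed, Kdm5a and Ep300, all with higher means on the deprived diet, and their adjusted p-values were 0.0861, 0.185, 0.107, 0.138 and 0.279 in limma. Over the whole set, 4 of 29 genes (13.8%) had no overlap between the arrays of these diets, against 5.53% of all genes tested. The 4 were Hdac2, Eed, Kdm5a and Ep300. In the supplemented minus regular comparison 2 of 29 had no overlap (Dnmt1 and Kat2a, 12.1% of all genes), and in supplemented minus deprived 7 of 29 (24.1% of all genes).

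Across the diets the means were in descending order from 0 to 2 to 10 IU in 15 of 29 genes, against 29.8% of all genes, and ran the other way in 2, Mbd3 and Hdac5, against 30.1%, an order of means with no test. In limma's moderated F test over the 3 diets 11 of 29 genes differed, against 45.3% of all genes. The 11 were the 13 changed genes without Kdm1a (adjusted p = 0.0507) and Crebbp (adjusted p = 0.0995).

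Over the whole array the share of genes lower on the supplemented diet differed with the level of the gene. Among the 25% of tested genes with the highest means, 8.34 to 13.15, 52.6% of all genes were lower on the supplemented than on the regular diet, and 65.3% were lower than on the deprived diet. These included 13 of the 29 genes, of which 8 and 11 were lower. The other 16 genes had 2 lower in each comparison, Uhrf1 and Kat2a. In the level range of Uhrf1, 6.15 to 7.07, 7.98% of all genes were lower than on the regular diet, and in that of Kat2a, 7.07 to 8.34, 28.6% were.

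**Figure D3:**
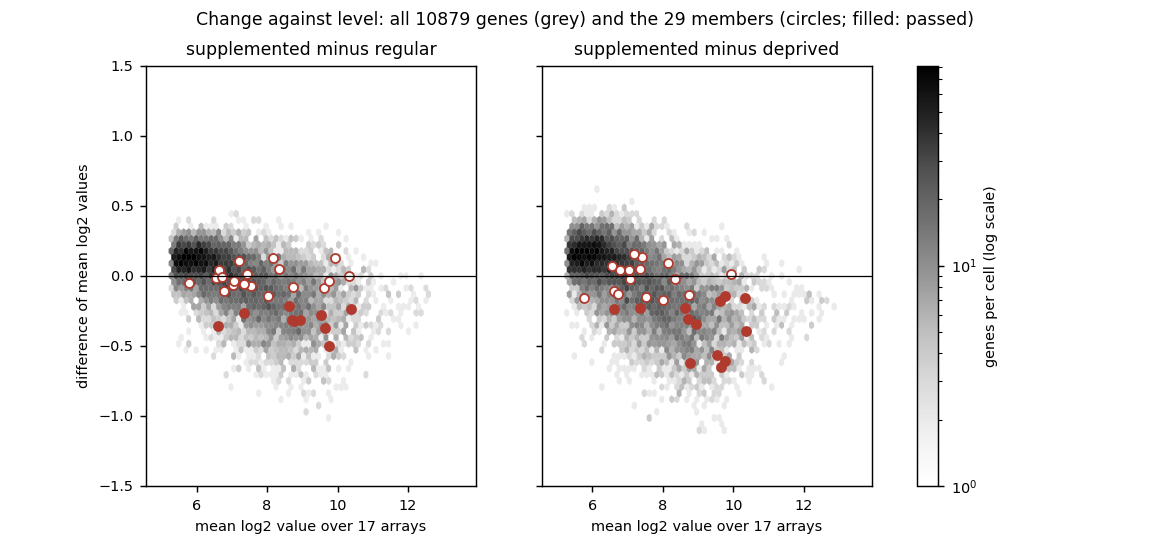
Change of every tested gene (grey cells, darker for more genes on a log scale) and of the 29 genes (circles, filled where the adjusted p is below 0.05) against the mean log2 value over 17 arrays, for the supplemented minus regular and supplemented minus deprived diets. The cloud bends below 0 at high levels, and 8 of 10 and 11 of 13 filled circles lie among the highest 25% of levels, at 8.34 or above. Uhrf1 (mean 6.61) and Kat2a (mean 7.36) are the filled circles at lower levels.

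Hdac1, Uhrf1 and Kat2a passed as lower in both supplemented comparisons before and after quantile normalization. After it Uhrf1 was at -0.42 (adjusted p = 0.00221 in limma) against the regular and -0.32 (adjusted p = 0.0144) against the deprived diet. Dnmt1 passed after it against the regular diet, and Hdac2, Ezh2 and Eed against the deprived diet. Ep300 and Hdac3 passed as higher in both comparisons after it, and Crebbp and Kdm5a as higher against the regular diet, with Kdm5a at 0.17 (adjusted p = 0.0088). With median centring the median over all genes tested was -0.078 and -0.103, and 13 and 18 of the 29 were then lower, beside 3343 and 4177 of all 10879 genes.

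**Figure D4:**
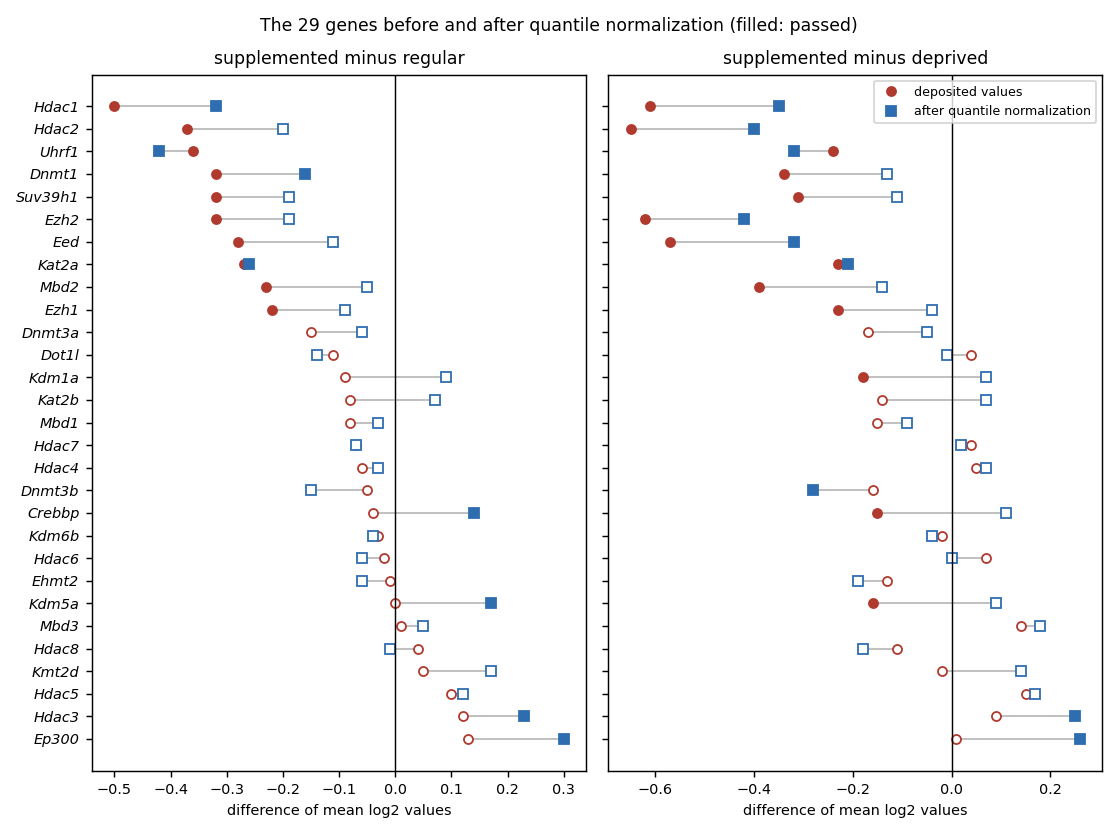
Change of each of the 29 genes from the deposited values (red circles) and after quantile normalization of them (blue squares), filled where the adjusted p is below 0.05; the horizontal axis is the difference of mean log2 values. In the left panel, supplemented minus regular, Hdac1, Uhrf1, Dnmt1 and Kat2a are filled and below 0 with both, and Ep300, Hdac3, Kdm5a and Crebbp are filled and above 0 after quantile normalization. In the right panel, supplemented minus deprived, Crebbp, Kdm1a and Kdm5a cross 0.

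The means of the cell cycle genes and of some marker lists of other cells differed on the supplemented diet. The mean over 30 tested cell cycle genes was 6.47 to 6.839 on the supplemented, 6.794 to 7.165 on the regular and 6.639 to 7.218 on the deprived diet. On the supplemented diet it differed by -0.37 from the regular diet (exact two-sided permutation p = 0.00866, adjusted p = 0.026 over 24 tests) and by -0.431 from the deprived diet (exact p = 0.0108, adjusted p = 0.0289). Of these genes 17 of 30 were lower than on the regular diet. With that mean as a covariate, Dnmt1 at -0.31 (adjusted p = 0.0238) was the 1 gene of the set that passed against the regular diet, where 7.47% of all genes passed. Dnmt1, Eed, Hdac1 and Hdac2 passed against the deprived diet, at -0.34, -0.50, -0.41 and -0.57, beside 1743 of all 10879 genes, and Ezh2 was at 0.04 (adjusted p = 0.873) against the regular diet.

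The mean of 8 T cell markers was 10.254 to 10.499 on the supplemented, 10.565 to 10.782 on the regular and 10.551 to 10.756 on the deprived diet, and 4 of 8 were lower than on the regular diet. The list mean differed by -0.257 and -0.272 from the regular and deprived diets (exact permutation, adjusted p = 0.0104 for both). The mean of 6 tested B cell markers was 6.208 to 6.542, 6.006 to 6.4 and 6.079 to 6.245 on the same diets, a difference of 0.209 from the regular diet (exact permutation, adjusted p = 0.0563) and 0.273 from the deprived diet (adjusted p = 0.0223). Against the regular diet 4 of 6 B cell markers were higher, and against the deprived diet 5 were higher and 1, Cd22, was lower. Cd22 was at 6.67 to 7.69 on the supplemented and 7.23 to 7.96 on the deprived arrays. Ms4a1 (CD20), at 4.87 to 5.76 over all arrays, was below the level filter. With the B cell mean as a covariate 9 of the 29 genes passed against the regular diet, all lower, beside 31.6% of all genes, and 6 against the deprived diet, all lower, beside 38.6%, while Hdac2 passed as higher on the deprived than on the regular diet. The 3 tested dendritic cell markers had a mean higher by 0.088 (exact permutation, adjusted p = 0.0364) and 0.177 (adjusted p = 0.0223). The mean of the 6 stromal and endothelial markers differed by 0.035 (adjusted p = 0.208) and 0.108 (adjusted p = 0.0104). Of these 6, 4 were higher than on the deprived diet and 1, Pecam1, was lower (8.21 to 8.55 against 8.46 to 8.95). The macrophage, monocyte and neutrophil markers differed by 0.075 (adjusted p = 0.111) and 0.077 (adjusted p = 0.208), and the CD8 T and NK cell markers by -0.065 (adjusted p = 0.282) and 0.01 (adjusted p = 0.922). In deprived minus regular only the stromal and endothelial mean passed among these lists and the cell cycle list, at -0.073 (exact permutation, adjusted p = 0.0378). The part of the T cell, dendritic and stromal markers in these results was not tested.

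Within a diet the 13 changed genes were also set beside the cell cycle mean, over the 6 regular and the 6 supplemented arrays, in 26 correlations. None passed after adjustment. The smallest p belonged to Hdac2 on the supplemented arrays, with r = 0.891 and rho = 0.829 (exact permutation p = 0.00556 and 0.0583, adjusted p = 0.144 and 0.379, n = 6), and r = 0.927 without the 2 arrays farthest from the median of the cell cycle mean. On the regular arrays r was -0.0645 for Hdac2 (rho = 0.0857, exact permutation p = 0.894 and 0.919).

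Other genes of the same pathways were followed from a list of 136, of which 106 were represented and 104 tested. Against the regular diet 34 were lower and 7 higher on the supplemented diet, and against the deprived diet 49 were lower and 7 higher, beside 33.7% and 47.2% of all genes changed. With the array spread as a covariate none of the 104 passed in any comparison, as for nearly all genes. After quantile normalization the counts were 20 lower and 14 higher, and 21 lower and 17 higher. With median centring none was higher against the regular diet and 47 were lower.

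The lower genes with the largest changes included both subunits of the histone chaperone FACT. Ssrp1 fell by 0.70 against the regular diet (SE 0.09, adjusted p = 6.88e-06) and Supt16h by 0.61 (SE 0.09, adjusted p = 3.84e-05). Rbbp7, the histone binding protein that Hdac1, Hdac2 and polycomb repressive complex 2 share as a partner, fell by 0.56 (SE 0.08, adjusted p = 1.34e-05) and Sap18, of the Sin3 deacetylase complex, by 0.63 (SE 0.08, adjusted p = 7.6e-06). Prmt1, the main arginine methyltransferase, fell by 0.67 (SE 0.07, adjusted p = 1.14e-06), and Kmt5a, the H4K20 monomethyltransferase, by 0.61 against the deprived diet (SE 0.08, adjusted p = 7.45e-06). These 6 also passed as lower after quantile normalization. With the array spread as a covariate none of them passed, with Ssrp1 at -0.29 (adjusted p = 0.459), Supt16h at -0.19 (0.657), Prmt1 at -0.35 (0.28), Rbbp7 at -0.30 (0.409), Sap18 at -0.44 (0.32) and Kmt5a at -0.27 (0.58).

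Of the 7 partner lists, the polycomb partners had the most higher genes. Against the regular diet 3 of 16 were higher and 2 lower, beside 10.8% and 22.9% of all genes. Against the deprived diet 3 were higher and 4 lower, beside 18.6% and 28.6% of all genes. Pcgf5 (0.26, SE 0.09, adjusted p = 0.022), Pcgf6 (0.24, SE 0.07, adjusted p = 0.0123) and Bmi1 (0.21, SE 0.08, adjusted p = 0.0403), RING finger partners of polycomb repressive complex 1, were higher on the supplemented than on the regular diet. Against the deprived diet they did not pass, at 0.01 (adjusted p = 0.91 in limma), 0.01 (0.909) and 0.13 (0.168). Deprived, regular and supplemented means were 7.01, 6.76 and 7.02 for Pcgf5 and 7.95, 7.72 and 7.96 for Pcgf6. Cbx2 (0.22, adjusted p = 0.0214) and Cbx7 (0.21, adjusted p = 0.0189), chromodomain readers of the same complex, were higher than on the deprived diet, both at -0.01 with the array spread as a covariate. They did not pass against the regular diet, at 0.18 (adjusted p = 0.0577 in limma) and 0.04 (0.664). The H3K9 methyltransferases Suv39h2 (0.22, SE 0.07, adjusted p = 0.0185) and Setdb2 (0.20, SE 0.06, adjusted p = 0.0199) were higher than on the regular diet, where their relative Suv39h1 was lower. Against the deprived diet Setdb2 passed (0.23, adjusted p = 0.00968 in limma) and Suv39h2 did not (0.06, adjusted p = 0.518).

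Against the deprived diet the deacetylase Sirt6 (0.37, SE 0.06, adjusted p = 3.85e-05) and the H3K9 demethylase Kdm4b (0.24, SE 0.06, adjusted p = 0.00195) were also higher. Its relative Kdm4c was the 1 listed gene that passed between the deprived and regular diets, with means of 9.74 ± 0.07 (SD, n = 5) and 9.48 ± 0.09 (SD, n = 6), a difference of 0.26 (SE 0.06, adjusted p = 0.0368). After quantile normalization that difference was 0.19 (adjusted p = 0.138).

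**Figure D5:**
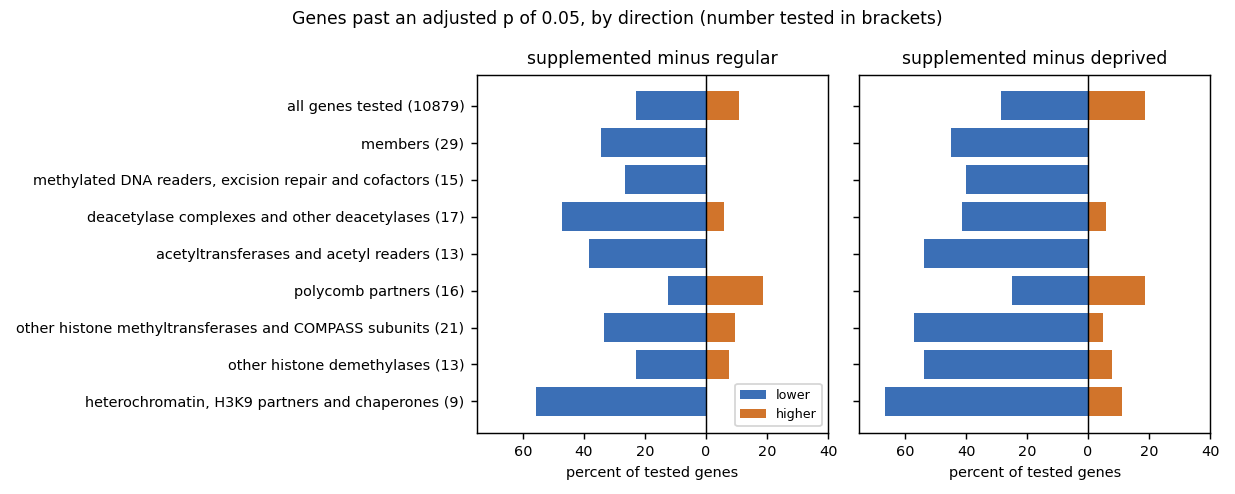
Percent of tested genes lower (blue, left of 0) and higher (orange, right of 0) on the supplemented diet, for all 10879 tested genes, the 29 genes of the set and 7 lists of partner genes, with the number tested in brackets. The polycomb partners are the list with more higher than lower genes against the regular diet (3 and 2 of 16), beside 10.8% higher and 22.9% lower of all genes. After quantile normalization 4 of the set itself were higher against that diet and 4 lower.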

How the data were processed

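RNA from 17 CD4+ T cell samples was measured on Affymetrix whole-transcript rat arrays, 1 array each, from 250 ng of total RNA per the labels' protocols. The values the authors deposited are log2 expression of each transcript cluster, made with RMA (robust multi-array average) and Partek 6.0 per the submitters' processing notes. The log base was taken from their range. For the probe file, any filter and scan batches: not given in the sources used here. Of 29214 clusters, 15310 had 1 gene symbol in the platform annotation, and 323 had several and were not used. Each of the 14506 genes kept its cluster with the highest mean, and the dimmest 25% by that mean were left out (lowest tested mean 5.321), which kept 10879.

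In R 4.3.3, limma 3.58.1 (lmFit and eBayes) gave 1 linear model for all diets (14 residual degrees of freedom) with 3 contrasts and an F test, Benjamini-Hochberg over all genes tested and a threshold of 0.05. The fit was tested on simulated data. Means of marker lists were compared with two-sided exact permutation tests (scipy 1.17.1). Every gene of the set is named, with the value on each deprived array where it changed; partner genes are the up to 5 largest changes per direction and contrast. The members and lists were chosen with earlier results of these data known. Alternatives covered scaling, filters, clusters, moderation, weights, covariates, the replicate number as a block and arrays left out. RefSeq promoters (GRCr8) were matched by symbol. The number of arrays limits the precision.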

Additional observations from a re-analysis of the deposited data

Results flagged for a closer look

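Within each diet the highest and lowest array of each of the 29 genes was compared with the other arrays of that diet by Dixon's gap, which marks a value far from its neighbours relative to the range of the group. Of 87 groups examined, 5 were marked, beside about 4.3 that chance would give at 1 in 20. Deprived array 4 was the lowest for Hdac1 at 9.95, with the other 4 arrays at 10.03 to 10.04. Supplemented array 3 was the lowest for Hdac5 at 6.97, with the others at 7.27 to 7.38, and without it Hdac5 passed as higher than on the deprived diet (0.22, adjusted p = 0.0128 in limma). Regular array 2 was the highest for Ezh2 at 9.07, with the others at 8.66 to 8.79. Regular array 1 was the highest for Suv39h1 at 9.08, with the others at 8.73 to 8.82. Regular array 5 was the highest for Dot1l at 7.00, with the others at 6.80 to 6.87.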

How the results depend on the processing

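Counts of changed genes are out of 29, given for supplemented minus regular, deprived minus regular, supplemented minus deprived and the F test. The values above were 10, 0, 13 and 11, beside 33.7%, 1.67%, 47.2% and 45.3% of all genes tested. With the array spread as a covariate they were 0, 0, 0 and 0 (4, 3, 3 and 5 at an unadjusted p under 0.05 in limma). With the cell cycle mean they were 1, 0, 4 and 3, beside 813, 215, 1743 and 1439 of all 10879 genes. With the B cell mean they were 9, 1, 6 and 7, beside 3441, 164, 4199 and 3749 of all genes. Without supplemented arrays 2 and 5, chosen for their small spread, they were 6, 2, 8 and 10. Of all genes 2171, 301, 3660 and 3349 then passed. Of the 6, 5 were lower and 1, Ep300, was higher than on the regular diet (0.17, adjusted p = 0.0318 in limma). Deprived minus regular gave 3 with array weights (Eed, Hdac2 and Kdm5a, beside 8.17% of all genes), 2 with only these diets in the fit (Eed and Hdac2, beside 4.28%) and 1 at an adjusted p of 0.1 (Hdac2, beside 3.74%). Leaving out 1 array gave 8 to 11, 0 to 1, 11 to 14 and 10 to 12. The 1 was Hdac2 without supplemented array 3 (adjusted p = 0.0498). Against the regular diet 8 came without supplemented array 2 (2950 of all 10879 genes) or regular array 2 (3245). The 11, with Hdac3 higher, came without supplemented array 6 (3497), and 9 without supplemented array 3 (4035). Against the deprived diet 11 came without supplemented array 5 (4471) or deprived array 2 (4481, with Hdac5 higher). The 14, with Hdac5 higher, came without supplemented array 3 (5444).

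Of the called changes, these turned sign against the deprived diet: Crebbp (0.105 with quantile normalization, 0.0962 with cyclic loess), Kdm1a (0.0695 and 0.0611), Kdm5a (0.0916 and 0.0953), and, with the array spread as a covariate, Ezh1 (0.0647), Kat2a (0.0746), Suv39h1 (0.0872) and Uhrf1 (0.0247). Against the regular diet Ezh1 (0.0104) and Mbd2 (0.0308) turned with the array spread and Ezh2 (0.0359) with the cell cycle mean. The cause was not tested.

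The labels do not say what the replicate numbers mark. Deviations of 16 same-numbered pairs correlated at -0.207 to 0.195. Pairs with different numbers were not compared, so these values cannot decide whether the numbers pair the samples. With the replicate number as a block the counts were 10, 0, 13 and 11, beside 33.3%, 1.33%, 49.0% and 46.3% of all genes. Against the deprived diet Crebbp no longer passed (adjusted p = 0.0822 in limma) and Mbd1 passed (adjusted p = 0.0411).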
